A study of Mus musculus with 2 samples.

Results

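H3K27me3, trimethylation of lysine 27 of histone H3, was mapped by chromatin immunoprecipitation and sequencing in sciatic nerve, and the regions described here are the H3K27me3 peaks of intermediate width that lay at the ends of protein-coding genes. They were chosen by 2 measured properties of the deposited peaks, width and position: a width above 500 bp and up to 5000 bp, and an overlap of at least 1 bp with a window reaching 2 kb to both sides of the annotated start or end of a protein-coding gene (mm10). Of 6018 peaks in the list, 1524 met the rule (25.3%), and they are called mid-width gene-end peaks below. They touched the ends of 1357 of 21887 protein-coding genes, which is 6.2% of all such genes and the background for every gene group below.

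The nerve came from male C57/BL6 mice aged 8 weeks, with no genotype other than the strain and no treatment given in the labels. There was 1 library from the immunoprecipitation, made with a Millipore antibody against H3K27me3, and 1 input library from sonicated chromatin without antibody. The nerve was used whole, so Schwann cells, fibroblasts, vessels and immune cells all contribute, and the labels do not state how many animals were used. There are no replicates, so no value can be set against variation between animals and no p-value was computed. The input was not analysed here, and no expression was measured, so the tissue label cannot be checked against transcripts.

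The mark is laid down by Polycomb repressive complex 2, whose catalytic subunit is EZH2 or EZH1, and is read by Polycomb repressive complex 1. In vertebrates it is known for covering CpG-rich promoters of silent genes, above all regulators of other lineages, as focal peaks or as domains spanning whole loci. In Schwann cells, the glia that myelinate peripheral axons, it has been studied as a restraint on genes induced after nerve injury.

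The promoters below show what kind of sequence these peaks cover. In each of 6 gene roles, the gene was taken whose whole promoter lay inside the single mid-width gene-end peak with most reads, followed by the such promoter with the fewest CpG for its base composition. The 250 bases before the promoter's own RefSeq start are printed 5′ to 3′ (GRCm38.p6, that is, mm10), with every CpG dinucleotide in capitals. At Sim1, Flt1, Kcnc4, Cdh22 and Gad2 this start lies inside the gene, downstream of the annotated start used for the windows.

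Sim1, chr10:50895401-50895650 (plus strand): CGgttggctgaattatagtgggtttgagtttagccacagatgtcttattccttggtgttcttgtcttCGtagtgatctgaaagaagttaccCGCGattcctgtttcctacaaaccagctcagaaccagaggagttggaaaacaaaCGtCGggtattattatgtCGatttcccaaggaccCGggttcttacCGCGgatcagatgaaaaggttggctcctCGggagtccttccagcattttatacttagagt
Wnt3, chr11:103773925-103774174 (plus strand): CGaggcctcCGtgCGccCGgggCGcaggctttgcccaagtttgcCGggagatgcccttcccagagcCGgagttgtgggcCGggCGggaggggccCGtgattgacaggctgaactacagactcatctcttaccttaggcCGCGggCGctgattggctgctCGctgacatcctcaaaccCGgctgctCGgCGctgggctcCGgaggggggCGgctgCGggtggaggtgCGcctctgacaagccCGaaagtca
Flt1, chr5:147726012-147726261 (minus strand): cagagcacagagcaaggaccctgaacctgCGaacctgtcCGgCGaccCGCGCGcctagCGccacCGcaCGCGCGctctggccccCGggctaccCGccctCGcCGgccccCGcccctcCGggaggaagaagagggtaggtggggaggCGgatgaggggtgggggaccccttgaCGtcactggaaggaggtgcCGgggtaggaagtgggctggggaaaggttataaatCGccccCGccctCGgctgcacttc
Kcnc4, chr3:107458899-107459148 (minus strand): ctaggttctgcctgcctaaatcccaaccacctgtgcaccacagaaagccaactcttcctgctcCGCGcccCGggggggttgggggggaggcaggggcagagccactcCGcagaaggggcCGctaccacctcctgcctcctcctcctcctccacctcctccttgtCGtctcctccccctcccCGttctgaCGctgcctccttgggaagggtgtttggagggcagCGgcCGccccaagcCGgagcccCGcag
Cdh22, chr2:165234738-165234987 (minus strand): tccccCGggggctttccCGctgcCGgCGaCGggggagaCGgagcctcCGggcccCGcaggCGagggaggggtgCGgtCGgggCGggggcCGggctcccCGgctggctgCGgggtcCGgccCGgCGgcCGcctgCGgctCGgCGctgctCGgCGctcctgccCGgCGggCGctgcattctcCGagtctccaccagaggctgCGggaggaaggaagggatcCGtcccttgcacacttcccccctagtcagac
Gad2, chr2:22622077-22622326 (plus strand): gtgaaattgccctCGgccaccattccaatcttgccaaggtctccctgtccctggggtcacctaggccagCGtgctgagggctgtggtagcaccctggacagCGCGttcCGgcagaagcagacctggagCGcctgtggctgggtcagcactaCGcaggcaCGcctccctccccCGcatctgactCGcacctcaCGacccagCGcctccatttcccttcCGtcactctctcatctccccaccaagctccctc
Nhlh2, chr3:102009895-102010144 (plus strand): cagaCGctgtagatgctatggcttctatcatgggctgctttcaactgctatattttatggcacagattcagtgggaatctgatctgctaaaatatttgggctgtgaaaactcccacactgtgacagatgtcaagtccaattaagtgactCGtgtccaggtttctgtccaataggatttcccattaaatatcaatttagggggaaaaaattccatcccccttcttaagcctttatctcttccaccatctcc

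The printed stretch held 30 CpG in Cdh22, a cadherin gene, and 23 in Flt1, which encodes a receptor for vascular endothelial growth factor. It held 22 in the ligand gene Wnt3, 13 in Gad2, which encodes a GABA-synthesising enzyme, and 12 in the potassium channel gene Kcnc4. Sim1, a transcription factor gene of hypothalamic neurons, had 11 CpG, and Nhlh2, another neuronal factor, had 2. Over the full 300 bases of the table's promoter (250 before the start and 50 after it), the ratio of observed to expected CpG ran from 0.143 in Nhlh2 to 0.871 in Cdh22, and GC content from 43.3% to 76.3%. The peaks around them held 95 reads over 3780 bp at Nhlh2 and 70 reads over 2947 bp at Cdh22. These 7 promoters thus span CpG-poor and CpG-rich sequence, with the low end set by the choice of Nhlh2 for its low CpG.

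The 1524 peaks had a median width of 1201 bp (quartiles 776 and 2004.5) and together covered 2.36 Mb, 31.0% of all bases in the peak list. Reads per peak, taken from the authors' score as explained in the processing notes, had a median of 26 (quartiles 16 and 47) and ran from 10 to 156. A peak with 26 reads is therefore typical, and 28 of the 1524 peaks (1.84%) rested on 10 or 11 reads. At the upper end, 353 peaks (23.2%) held at least 50 reads and 53 held at least 100. Read density varied little: the median was 21.8 reads per kb, with quartiles of 19.8 and 24.7. Reads followed width closely across these peaks (Spearman correlation 0.958, n = 1524 peaks of 1 library), so width and reads describe nearly the same property. In whole nerve, fewer cells with the mark and less mark per cell cannot be told apart.

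**Figure D1:**
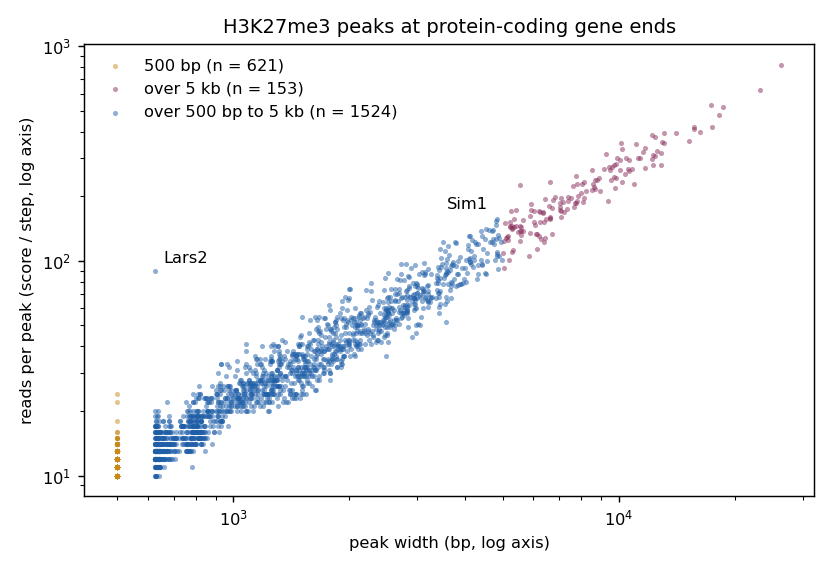
Width (bp, log axis) against reads (log axis) for each peak at a protein-coding gene end, with mid-width peaks in blue, 500 bp peaks in orange and peaks over 5 kb in purple. The 3 classes follow one band, no peak is wider than 500 bp and narrower than 625 bp, and the Lars2 peak stands above the band at 90 reads.

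The width limits cut a continuous band at the upper side and a gap at the lower. No peak in the whole list was wider than 500 bp and narrower than 625 bp. The narrowest members, at Vwa3b and Npffr1, were 625 bp wide with 13 and 17 reads, and the 621 peaks of exactly 500 bp at gene ends held 10 to 24 reads. At the other limit, the widest member lay at Prdm13, a zinc finger regulator of neuron identity, with 4978 bp and 101 reads. The next widths, just outside, were 5011 bp with 109 reads at Dlgap2 and 5030 bp with 124 reads at Prdm14. The position limit also cut through neighbours: 24 members overlapped a 2 kb window by 100 bp or less, and 96 other peaks of this width lay outside the windows by 500 bp or less.

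One peak departed from the shared density. The peak at Lars2, which encodes the mitochondrial leucyl-tRNA synthetase (chr9:123461761-123462385), packed 90 reads (exact 95% Poisson interval 72.4 to 110.6) into 625 bp, or 144 reads per kb. The next densest, at the adhesion gene Mpzl2, had 38.1 reads per kb, and Meioc, Cdk5r2 and the pair Gm30191 and Grrp1 followed with 37.15, 36.8 and 36.5. Among mid-width peaks away from gene ends, the densest had 1105 reads per kb. Whether the input is also dense at Lars2 was not tested. The median reads per peak stayed at 26 without the Lars2 peak.

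The peaks lay mainly at gene starts. Strand was known from the promoter table for 17492 genes, which resolved 1116 of the 1524 peaks, and 948 of these (84.95%, exact 95% interval 82.7 to 87.0) overlapped the 2 kb around a start. Of them, 792 touched a start and no known far end. The other 156 touched a start and another gene end, which in short genes can be the same gene. The remaining 168 lay at the far end of genes alone. Peaks touching a start counted as resolved even where they also touched a gene of unknown strand, unlike peaks at a far end. How far this raises the share at a start was not tested. Peaks of exactly 500 bp at gene ends were at a start in 79.0% (74.99 to 82.7) and peaks over 5 kb in 87.6% (79.8 to 93.2), so the 3 intervals overlap or nearly touch. All intervals cover counting error only, and neighbouring genes can share a peak.

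Within the start window the signal sat on the transcribed side. Of the 948 peaks at a start, 728 (76.8%, 74.0 to 79.4) were centred downstream of it, with a median offset of 496.8 bp (quartiles 46.5 and 1056). The annotated start base itself was covered by 481 (50.7%). Among the 869 genes concerned, the share covered by a mid-width peak was 13.5% at 1500 bp upstream, 56.2% at the start, 65.8% at 400 bp downstream and 35.9% at 1500 bp downstream. Because the annotated start is the outermost start of a gene, the offset was also taken at genes with a single tabulated start within 10 bp of it. Of 423 such peaks, 322 (76.1%, 71.8 to 80.1) were centred downstream, with a median of 436.5 bp.

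The far end of genes showed a different arrangement. For the 321 genes with a mid-width peak in the window at that end, coverage was highest inside the gene, with 49.8% of genes covered 1400 bp before the end. Within the 2 kb window it was lowest just past the end, with 18.7% covered at 100 bp, and was 27.4% at 1400 bp beyond. Of the 321 genes, 136 had no mid-width peak at their start. At the others, the coverage inside the gene can include start peaks, which were not separated. Of the 168 peaks at a far end alone, 13 overlapped any tabulated promoter, compared with 484 of the 792 at a start and no known far end. Their median reads were equal, at 26 in each set.

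**Figure D2:**
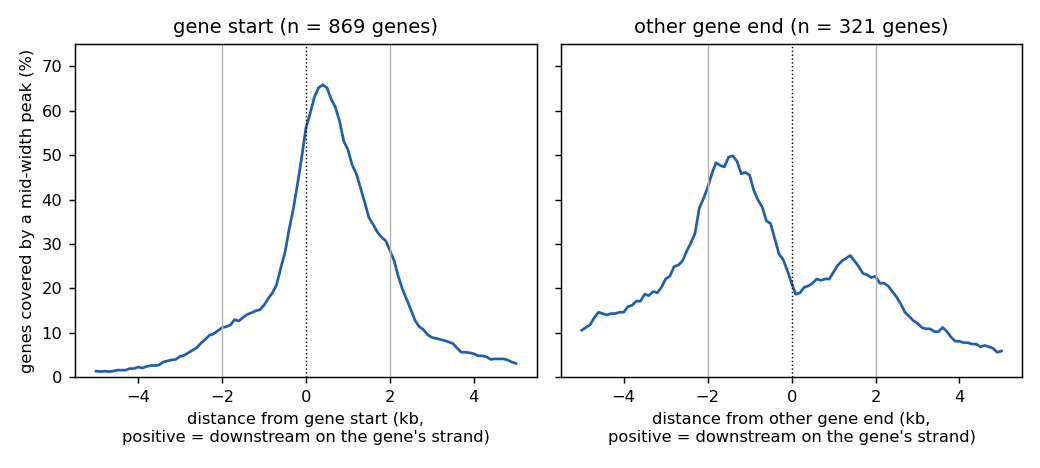
Share of genes (%) covered by a mid-width peak at each distance (kb) from the gene start (869 genes, left) and from the other gene end (321 genes, right), downstream on the gene's strand to the right; grey lines mark the 2 kb windows. Coverage peaks at 65.8% downstream of the start and, at the far end, at 49.8% inside the gene. Of the 321 genes on the right, 136 had no mid-width peak at their start.

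Promoters of these genes were richer in GC and CpG than promoters at large, by a modest margin. A promoter was called CpG-rich when at least 50% of its 300 bases were G or C and its observed/expected CpG reached 0.6. Of 1005 genes with a mid-width peak and a tabulated promoter, 549 were CpG-rich (54.6%, 51.5 to 57.7), against 45.8% of all 17492 tabulated protein-coding promoters and 49.3% when olfactory and vomeronasal receptor genes were left out. Median GC content was 62.3% against 56.3%, and the median promoter held 18 CpG against 13. The share was 50.5% (44.8 to 56.1) for genes with 500 bp peaks only and 65.2% (55.6 to 73.9) for genes with a peak over 5 kb. The interval of the mid-width group overlaps those of both other classes.

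CpG content went with how the peak sat on the promoter. Where the promoter lay whole inside a mid-width peak, 239 of 372 were CpG-rich (64.2%, 59.1 to 69.1). Where the peak was at the far end of the gene alone, 67 of 136 were (49.3%, 40.6 to 58.0). The lower quartile of observed/expected CpG was 0.441 for genes with a mid-width peak against 0.22 for all genes.

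**Figure D3:**
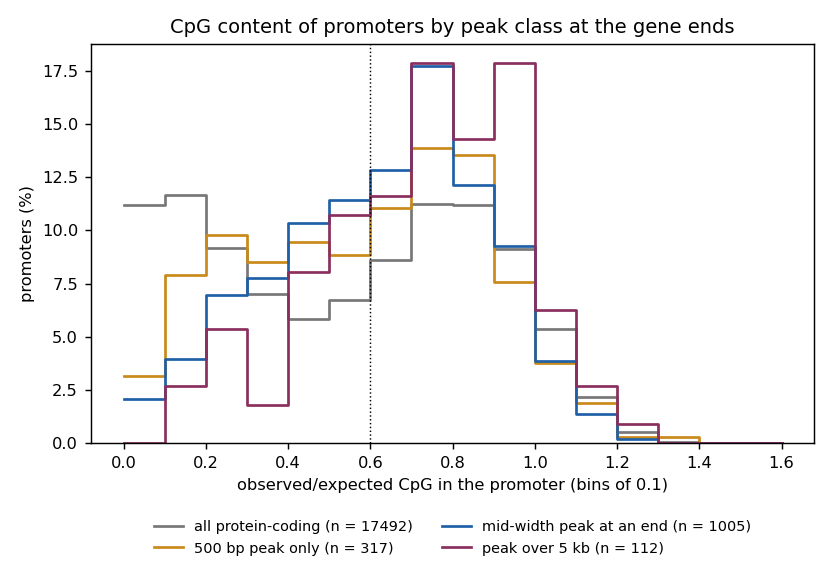
Share of promoters (%) in bins of 0.1 of observed/expected CpG, for all tabulated protein-coding genes (grey), genes with 500 bp peaks only (orange), with a mid-width peak (blue) and with a peak over 5 kb (purple). The dotted line marks 0.6. The grey curve has a second group of promoters at low CpG, and the blue curve, with a median of 0.654, has fewer there.

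Short sequence motifs were counted in the same 300 bases, on both strands, for the 869 genes with a mid-width peak at the start. GGGCGG, the GC box bound by Sp factors, was found in 60.6% (57.3 to 63.9) against 46.3% of all promoters, and CGCGCG in 22.6% against 15.3%. CCAAT was found in 33.8% against 39.2%, and the E-box CANNTG in 68.4% against 68.8%. TATAAA was found in 9.90% against 13.3%. Both parts of the element bound by the neuronal repressor REST were searched, as TTCAGCACC, found in 8 of 869 (0.921%, 0.398 to 1.81) against 0.412%, and as GGACAGCG, found in 2.99% (1.96 to 4.35) against 1.66%. No searched motif contains another as a whole, though overlapping matches were not separated.

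Motifs known from promoters active in most cells were less frequent than in all promoters. CCGGAAGT, the core bound by ETS factors, was found in 10 of 869 promoters (1.15%, 0.553 to 2.11) against 5.28% of all promoters. GCATGCGC, part of the site of the respiratory regulator NRF1, was found in 12 (1.38%, 0.716 to 2.40) against 3.61%. Restricted to CpG-rich promoters, a comparison added after seeing the data, CCGGAAGT was found in 3 of 482 (0.622%, 0.129 to 1.81) against 9.07% of 8004, and GCATGCGC in 1.87% against 6.56%. For GGGCGG the interval then held the share of all CpG-rich promoters, at 77.8% (73.8 to 81.4) against 76.8%, and TATAAA was then more frequent, at 7.68% (5.46 to 10.4) against 4.81%. So was CANNTG, at 63.3% (58.8 to 67.6) against 58.2%, while the GGACAGCG interval held that share, at 3.73% (2.23 to 5.84) against 2.77%. In the 372 promoters whole inside a peak, 3 more intervals held the share of all promoters than in the 869. These 3 were GCATGCGC at 2.15% (0.933 to 4.19), GGACAGCG at 2.69% (1.30 to 4.89) and CCAAT at 34.4% (29.6 to 39.5). The intervals for CANNTG and TTCAGCACC held that share in both sets. A match is a description of the sequence and does not show binding.

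Wide and narrow members differed in the genes they lay at. Of the 644 genes at peaks under 1 kb, 71 (11.02%, 8.71 to 13.7) belonged to the 4 lists of developmental transcription factors described next. The share was 16.6% (13.5 to 20.1) of 517 genes at peaks of 1 kb to under 2 kb and 32.1% (27.5 to 37.0) of 386 genes at peaks of 2 to 5 kb. The share at a gene start changed little over the same 3 groups, at 86.3%, 84.4% and 83.5%, with overlapping intervals. CpG-rich promoters made up 50.9%, 58.3% and 58.4%. Median reads were 15, 31 and 66.

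Among the listed groups, transcription factors of development were the largest, with 211 of the 1357 genes in 4 lists. Of the 1357 genes, 768 were in no list. Of 188 homeobox genes, which encode DNA-binding regulators of body pattern and cell identity, 116 carried a mid-width gene-end peak (61.7%, 54.3 to 68.7), against 6.2% of all genes. These genes' member peaks held a median of 70 reads, against 30 over all 1357 genes. The most reads were at Msx1, a regulator of neural crest and tooth development, with 309 reads in 4 peaks, followed by the eye and forebrain factor Six3 with 256 in 3 and Barhl2 with 235 in 3. A further 43 homeobox genes had only peaks of other widths, and 75 had a peak over 5 kb. Mid-width and broad peaks thus stood side by side: at Six3 a broad peak over the gene brought the reads at its ends to 397.

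The other developmental families followed. Of 85 Sox, Fox, Tbx and Gata genes, 38 carried such a peak (44.7%, 33.9 to 55.9), led by Sox1 and Tbr1 with 226 reads each and Foxd4 with 178. Of 69 zinc finger developmental factors, 31 did (44.9%), led by Osr2 with 251 reads, Fezf1 with 179 and Prdm13 with 178. Of 69 basic helix-loop-helix genes, 26 did (37.7%), among them Sim1 with 156 reads, Neurog3, the endocrine pancreas factor, with 125 and Neurog1, a sensory neuron factor, with 116. In contrast, 2 of 45 nuclear receptor genes (4.44%, 0.543 to 15.2; Esrrg with 70 reads and Nr2e1 with 25, beside a peak over 5 kb) and 5 of 397 Zfp genes (1.26%, 0.410 to 2.92; most at Zfp853 with 44 reads) carried one. Counting every width, 6 of the 45 nuclear receptor genes had a peak, 2 of them one over 5 kb.

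The peaks with most reads were largely at these factors. Sim1 (chr10:50891849-50896680) held 156 reads (132.5 to 182.5) over 4832 bp, and Msx1 (chr5:37825569-37830358) 154 over 4790 bp. Gata2, a blood and neuron factor, and the Hoxa10 and Hoxa11 pair had 139 each, Dmrt3 and Gsx1 138 each, Zic1 with Zic4 132 and Sox1 131. The 2 remaining peaks of the top 10 each touched 3 genes. One, of 147 reads (chr2:18688388-18693187), lay at Bmi1, Gm46725 and Spag6, and covered no base of Bmi1, a Polycomb gene. The second, of 140 reads (chr8:71685802-71690331), lay at Jak3, Insl3 and B3gnt3. With counting intervals this wide, the order within the top 10 is not resolved: the 10th, at Sox1, spans 109.5 to 155.4.

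**Figure D4:**
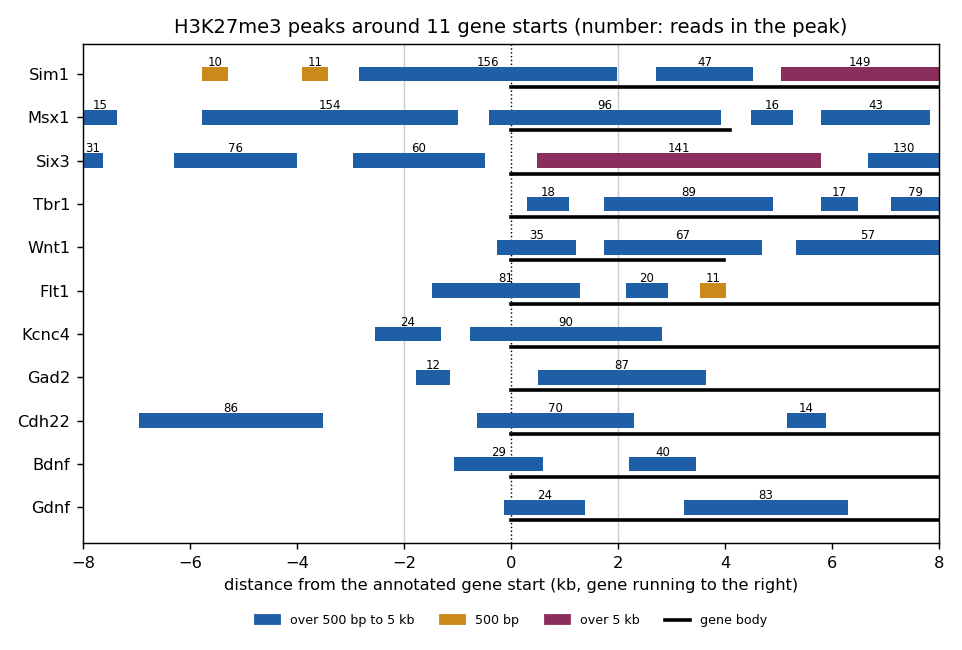
Peaks within 8 kb of the annotated start of 11 genes, drawn to scale in kb with the gene running to the right; blue bars are mid-width peaks, orange 500 bp peaks, purple peaks over 5 kb, black lines the gene body (cut at 8 kb), and numbers are reads. Msx1, Six3, Tbr1 and Wnt1 show several peaks along the locus, whereas Kcnc4, Gad2, Bdnf and Gdnf show 2 each; blue bars beyond 2 kb of either gene end are not members.

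Genes of secreted signals were also covered often. Of 51 Wnt, Bmp, Gdf and activin ligand genes, 22 carried a mid-width gene-end peak (43.1%, 29.4 to 57.7), with Wnt1 at 159 reads in 3 peaks, and Wnt3 and Wnt9b at 123 reads in the peak they share (chr11:103770092-103775034). None of the 51 had a peak over 5 kb, and 5 had 500 bp peaks only. Of 22 Fgf genes, 9 did (40.9%, 20.7 to 63.6), led by Fgf3 with 76 reads and Fgf5 with 54. Wnt and Bmp antagonists had 9 of 33 (27.3%), among them the bone regulator Sost with 81 reads in 4 small peaks and Sfrp2 with 59. Growth and trophic factors had 14 of 51 (27.5%, 15.9 to 41.7). In this list the morphogen gene Shh had 206 reads in 2 peaks, and the neurotrophin genes Ntf3 and Ntf5 had 120 and 97. The Ntf5 peaks are shared with its neighbours Lhb and Kcna7.

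Guidance cues and immune signals had lower shares. Semaphorin, ephrin, netrin and Slit genes had 5 of 40 (12.5%, 4.19 to 26.8), with Draxin at 42 reads in a peak shared with Mad2l2. Chemokines and interleukins had 3 of 75 (4.0%, 0.833 to 11.2). Of these Cxcl14 had 63 reads, while Cxcl12 and Cxcl2 had 13 each. The intervals of the guidance cue list and of the chemokine and interleukin list hold the background.

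Shares of receptor genes differed from list to list, with intervals that mostly overlap. Amine and acetylcholine receptors of neurons and muscle had 22 of 53 (41.5%, 28.1 to 55.9), with Adra2c, an adrenergic receptor, at 96 reads in a peak that covered 92.8% of this short gene. Chrna3 and Chrnb4, nicotinic subunits of autonomic ganglia, share a peak of 66 reads (chr9:55024284-55026912). Glutamate, GABA and glycine receptors had 16 of 52 (30.8%, 18.7 to 45.1), led by Grik3 with 101 reads. Receptor kinases with Frizzled and TGF-beta receptors had 15 of 68 (22.1%, and 13.2% with peaks of at least 20 reads), with Flt1 at 81 reads and Fzd10 at 78. Eph, plexin, Robo and Unc5 receptors had 8 of 35 (22.9%), led by Epha10 with 61 reads in a peak shared with Maneal.

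Orphan and peptide G protein-coupled receptors had 30 of 162 (18.5%, 12.9 to 25.4, and 10.5% with peaks of at least 20 reads), with Avpr1a at 54 reads and Sstr1 at 50. Adhesion receptors had 5 of 30 (16.7%), led by Celsr3 with 81 reads, and TNF ligands and receptors 5 of 41 (12.2%), led by Tnfrsf12a with 46 in a peak shared with Cldn6. Olfactory and vomeronasal receptors, which are silent outside the sensory epithelia, had 3 of 1463 (0.205%, 0.0423 to 0.598), with 15 to 24 reads. In none of these receptor lists did any gene have a peak over 5 kb.

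Among channel and transporter genes, the interval for potassium channels lay above that for solute carriers, while those of the other channel lists overlapped it. Potassium channels had 26 of 94 (27.7%, 18.9 to 37.9), with Kcnc4 at 114 reads in 2 peaks and Kcnk12 at 87. Sodium, calcium, TRP and pacemaker channels had 19 of 88 (21.6%, 13.5 to 31.6), led by Asic4 with 87 reads. Connexins and aquaporins had 7 of 31 (22.6%). Solute carriers had 39 of 378 (10.3%, 7.44 to 13.8). With peaks of at least 20 reads their share was 5.82% (3.68 to 8.68), an interval that holds the 4.28% of all genes at that minimum. They were led by the vesicular glutamate transporter gene Slc17a7 with 126 reads, 111 of them in a peak that also touches Gfy and Pth2.

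Matrix and adhesion genes differed from list to list. Cadherins and nonclustered protocadherins had 15 of 46 (32.6%, 19.5 to 48.0, and 17.4% with peaks of at least 20 reads), led by Cdh22 with 135 reads and Pcdh8 with 123, while the clustered protocadherins had 0 of 57. A count of 0 allows a share of up to 5.26%, and the exact interval reaches 6.27%, which holds the background. Leucine-rich repeat adhesion genes had 18 of 104 (17.3%), with Elfn1 at 103 reads. Proteoglycans with their link proteins had 6 of 28 (21.4%), the top 3 being Hapln4, Hapln2 and Bcan, components of the neural matrix, with 58, 53 and 51 reads. The interval for this list held the background with a 1 kb window, at 10.7% (2.27 to 28.2) against 5.35%, and with peaks of at least 20 reads or with 50% overlap, at 14.3% (4.03 to 32.7) against 4.28% and 5.68%. Collagens had 2 of 44 (4.55%), integrins and laminins 1 of 37 (2.70%) and metalloproteinases 2 of 85 (2.35%), with intervals that include the background.

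Intracellular signalling genes mostly lay near the background. Cyclic nucleotide enzymes had 3 of 57 (5.26%), keratins 6 of 109 (5.50%) and myosins, actins and sarcomere genes 8 of 83 (9.64%). RGS, dual-specificity and tyrosine phosphatases had 11 of 82 (13.4%, 6.89 to 22.7) and Ras regulators 8 of 50 (16%, 7.17 to 29.1). In these last 2 lists the median reads were 17 and 14.5, below the 30 of all genes with such a peak. With peaks of at least 20 reads their shares were 4.88% (1.345 to 12.02) and 6% (1.255 to 16.55), and both intervals held the 4.28% of all genes. The interval for Ras regulators also held the background with the 5 kb window, at 7.57%.

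Few of the genes that most cells express carried these peaks. Ribosomal protein genes had 1 of 84 (1.19%, 0.0301 to 6.46). Respiratory chain genes had 1 of 105, which was Ndufa4l2 with 46 reads in a peak shared with Shmt2. The proteasome had 0 of 48 and sterol and fatty acid synthesis 0 of 27, which allow up to 6.25% and 11.1%.

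Genes of neuronal transmission, whose cell bodies lie outside the nerve, had the second highest share of the 46 lists. Of 68 synapse and transmitter genes, 32 carried a mid-width gene-end peak (47.1%, 34.8 to 59.6), with a median of 48 reads. Slc17a7 had 126 reads, and Gad2 and the vesicular acetylcholine transporter gene Slc18a3 had 99 each. A further 9 had 500 bp peaks only. The Slc18a3 peak of 75 reads is shared with Chat, whose introns hold this gene.

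In the nerve injury and repair list, 11 of 51 genes carried such a peak (21.6%, 11.3 to 35.3), with a median of 29 reads. Shh had 206 reads, Olig1, an oligodendrocyte lineage factor, 104 in 3 peaks, and the growth regulator Hmga2 65. Fgf5 had 54 reads, the progenitor factor Sox2 39, and the trophic factor genes Bdnf, Gdnf and Artn 29, 24 and 24. The Artn peak lay at the far end of the gene, whereas Bdnf was covered at its annotated start (chr2:109673634-109675297) and Gdnf likewise (chr15:7809924-7811425). Both also had a peak with more reads downstream of the start, outside the window. It held 40 reads from 2205 bp at Bdnf and 83 reads from 3227 bp at Gdnf. Wnt5a, Egfr and Cdh2 had 19, 16 and 12 reads. This list was written with results of these data and of Polycomb work in Schwann cells known, so its share is not independent evidence.

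Of 41 genes of the myelin programme, 7 carried a mid-width gene-end peak (17.1%, 7.15 to 32.1), with few reads each. Pou3f2 had 55 reads in 3 peaks, and Pou3f1, a factor of promyelinating Schwann cells, 27. Dusp15, Cntn2 and Ncmap had 26, 24 and 22. Egr2, the master regulator of myelination, had 18 reads (10.7 to 28.4) in 905 bp. That peak lay 619 to 1523 bp downstream of the annotated start and did not cover it. Sox10, the glial lineage factor, had 11 reads (5.49 to 19.7) in 632 bp. No gene of the list had a peak over 5 kb, and 6 had 500 bp peaks only. With peaks of at least 20 reads the share was 9.76% (2.72 to 23.1) against 4.28% of all genes, so the interval then held the background, as it did with the 5 kb window at 7.57%.

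Markers of fibroblasts, perineurium, vessels, immune cells, muscle and fat had 8 of 69 (11.6%, 5.14 to 21.6), an interval that holds the background. Flt1 of endothelium had 81 reads, the skeletal muscle actin gene Acta1 69 in 2 peaks and Sfrp2, a fibroblast gene, 59. Polycomb and H3K27 demethylase genes had 2 of 34 (5.88%): Bmi1 through the shared peak above, and Cbx8, a subunit of Polycomb repressive complex 1, with 43 reads in 2 peaks that covered none of its gene body.

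**Figure D5:**
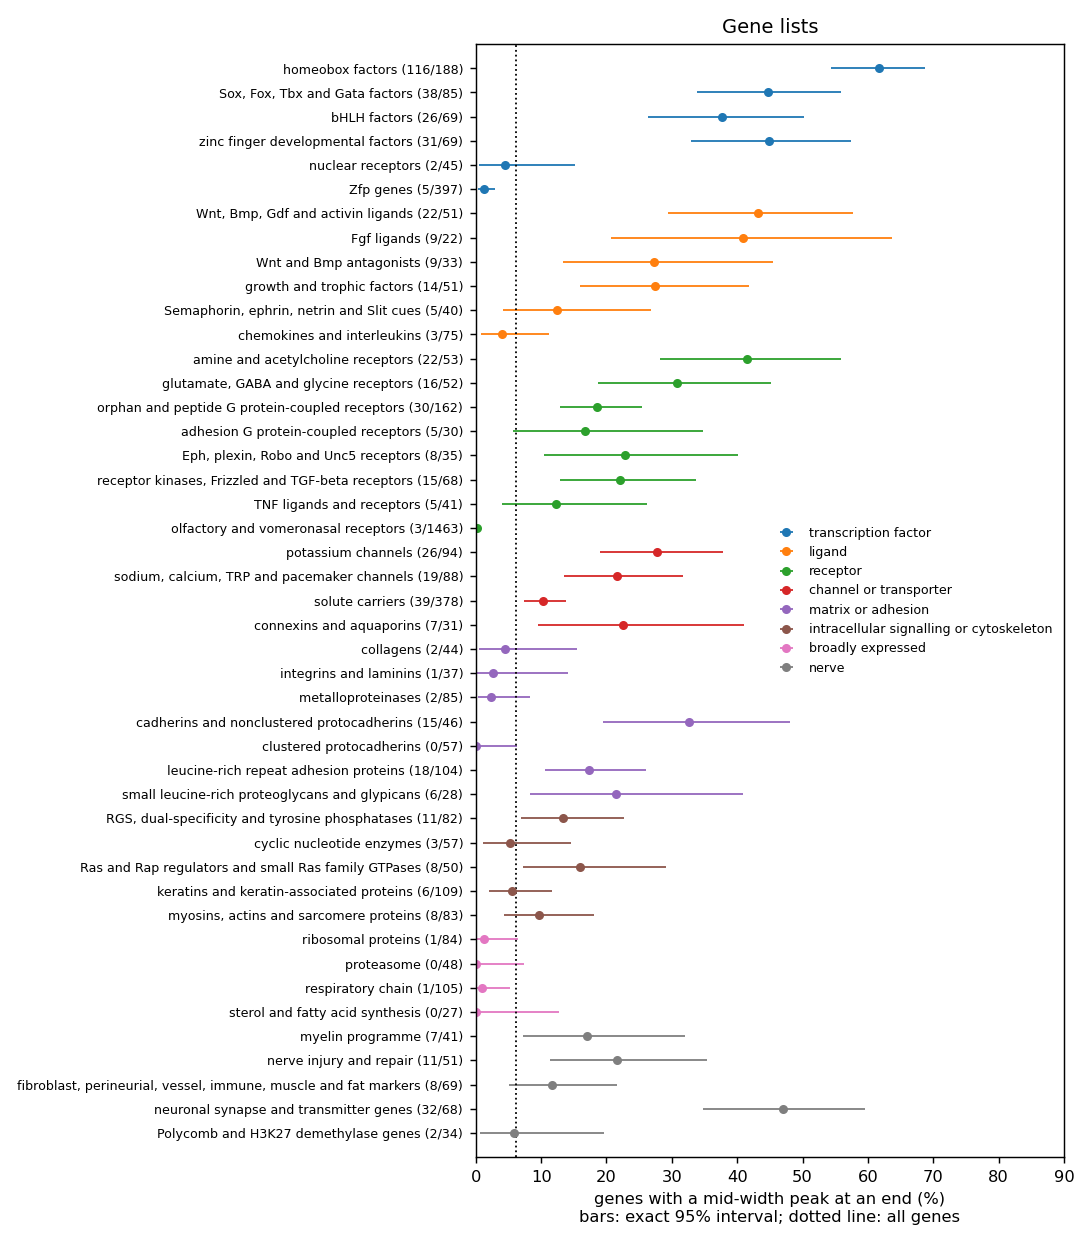
Share of genes (%) with a mid-width peak at an end for each gene list described, coloured by role, with exact 95% intervals and, in brackets, genes with a peak of genes in the list. The dotted line is the 6.2% of all protein-coding genes; homeobox genes stand highest at 61.7%, and broadly expressed genes lie at its left.

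Many of these peaks stood beside others. Another peak of the list lay within 5 kb of 800 of the 1524 (52.5%, 50.0 to 55.0), and within 1 kb of 440, whereas 464 (30.4%) had none within 50 kb. For 541 of the 800 the nearest peak was also mid-width, for 214 it was 500 bp and for 45 it was over 5 kb. The share with a neighbour was 42.5% (38.6 to 46.5) for 500 bp peaks at gene ends and 92.2% (86.7 to 95.9) for peaks over 5 kb, and neither interval overlaps that of mid-width peaks. Among members it was 41.6% (37.7 to 45.5) under 1 kb and 71.5% (66.7 to 76.0) from 2 to 5 kb. Mid-width peaks away from gene ends had a neighbour more often, in 65.0% (62.7 to 67.2) of 1785.

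At the level of genes, most carried a single such peak. Of the 1357 genes, 1100 had 1 mid-width peak at their ends, 202 had 2, 46 had 3 and 9 had 4, the last including Msx1, Tbr1 and Sost. A peak over 5 kb was present as well at 67 genes and a 500 bp peak at 184, and 1117 (82.3%) had no other width class at their ends. Conversely, 1378 of the 1524 peaks touched 1 gene, 138 touched 2 and 8 touched 3. Among the 8 were those at Mpv17, Trim54 and Ucn with 117 reads, and at the thyroid hormone synthesis genes Duox2, Duoxa1 and Duoxa2 with 70.

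A set of 15 genes lay whole inside a single mid-width gene-end peak, among them the factor genes Neurog3, Foxq1, Gsx1, Hoxb1, Pou4f3, Mesp1 and Nkx2-9, the thyroid hormone deiodinase gene Dio3 and the peptide gene Pyy. Genes with a mid-width peak had a median length of 20255 bp, against 17169 bp for all genes and 7761.5 bp for genes with a peak over 5 kb.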

How the data were processed

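H3K27me3 was measured in 1 ChIP library with 1 input. Per the submitters' processing notes, Bowtie and build mm10 were used. Not given in the sources used here: Bowtie's version, the peak caller, its threshold and any use of the input. Each deposited peak has a score, made by the authors. With a tolerance of 0.05, 99.98% of the scores equal a whole number times 2.5735. Scores were therefore divided by this step and are given as reads, an inference from the values. The lowest score, 25.7, is then 10 reads, with 31.6% counting error. Library totals are not given.

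Genes came from RefSeq (GRCm38.p6), which gave strand and promoter for 17492 of 21887 protein-coding genes; exons were not used. Each gene's promoter was the tabulated one nearest its annotated 5′ end. Shares carry exact Clopper-Pearson 95% intervals and reads exact Poisson intervals, for counting error only. A share of 0 allows 3 counts of the total. No test was run, as there are no replicates. Selection and sequence code was tested on simulated data.

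The members and the 46 gene lists were chosen with earlier results of these data known, and lists overlap. Named are the 10 peaks with most reads, the 5 densest, peaks touching most genes, those nearest the limits, up to 3 genes per list, and every repair and myelin gene with such a peak. Genes lying whole inside a peak and those with 4 peaks were named after their values were seen. Some genes and 1 list are not reported here. Alternatives varied the window, peak reads, overlap, CpG rule, neighbour distance and background. Python 3.11.15, pandas 2.3.3 and scipy 1.17.1 were used.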

Additional observations from a re-analysis of the deposited data

How the results depend on the processing

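The number of mid-width gene-end peaks stayed within 1.5 times of 1524 with windows of 1 kb (1233) and 5 kb (1975) and with at least 50% of the peak inside the window (1344), but was 1003 with peaks of at least 20 reads. The share of protein-coding genes with such a peak, 6.2%, was 5.346%, 7.571%, 5.684% and 4.277% in the same order, and 6.518% on autosomes. The share with a neighbour within 5 kb was 49.31%, 58.73%, 49.4% and 37.49%; in the last, fewer peaks remain that can be neighbours. It was 44.16% within 2 kb and 56.96% within 10 kb. Median reads were 38 with peaks of at least 20 reads, by construction, and the share at a gene start was 87.54% with the 5 kb window. It stayed inside its interval with the 1 kb window, the 20 read minimum and the 50% overlap. With a stricter CpG rule (GC at least 0.55, ratio at least 0.65) 45.77% of promoters were CpG-rich, against 38.27% of all. Of 9 motifs, 7 had an interval apart from the share of all promoters at gene starts, and 4 did for promoters whole inside a peak, which are fewer. Of 46 lists, 25 had an interval above the background; this was 20 to 26 across the alternatives. With peaks of at least 20 reads, the solute carrier, proteoglycan, phosphatase, Ras and myelin lists no longer lay above it. With peaks of at least 20 reads, 5 lists fell below their main interval. No paired analysis was possible because there is 1 ChIP library and no test. Depth limits single narrow peaks most: members under 1 kb hold a median of 15 reads.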

Other observations

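Some microRNA genes lay in these peaks. Of 1005 hairpins in the RefSeq table, 7 overlapped a mid-width gene-end peak. Mir196b, of the Hoxa cluster, lay in a peak of 56 reads and 2230 bp at Hoxa9 and Hoxa10, and Mir1247 in one of 20 reads and 905 bp at Dio3. Their 5p strands are shown with the seed (bases 2 to 8) in capitals, and the seeds differ.
miR-196b-5p: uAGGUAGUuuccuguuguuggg
miR-1247-5p: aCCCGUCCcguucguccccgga

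The X chromosome held 11 of the 1524 peaks. A mid-width peak was present at 10 of 966 X-linked protein-coding genes (1.04%, 0.497 to 1.90), against 6.52% of 20665 autosomal genes, and at none of 256 Y-linked genes, which allows up to 1.17%. The mice were male, so X and Y are single copy, unlike autosomes, and no peak in the list holds fewer than 10 reads. How far copy number lowers these shares was not tested. Single autosomes ranged from 3.39% on chromosome 16 to 9.15% on chromosome 15.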
